A study of Mus musculus with 6 samples.

Results

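The genes of the oxygen-sensing system were compared between WT cells and IG27 cells: the subunits of the hypoxia-inducible factors (HIFs), the hydroxylases that mark HIF for destruction in the presence of oxygen, and the protein that recognizes the mark. The 10 genes were chosen by name for their known place in the pathway, with earlier results of these data known. They were *Hif1a*, *Epas1*, *Hif3a*, *Arnt*, *Arnt2*, *Egln1*, *Egln2*, *Egln3*, *Hif1an* and *Vhl*. All 10 were among the 22911 genes that could be named on the array through the RefSeq accession of a probe, and 9 of them were among the 14898 genes tested. Both lines came from OS3, a male mouse glial line of the C3H strain (C3H/HeN in the methods) that was immortalized with SV40 and came from newborn brain. WT cells carried the empty vector, and IG27 cells carried a pcDNA3.1 plasmid for histone H3.3 with a lysine-to-methionine change (H3.3K27M). RNA was taken from 3 samples of each after 2 days in medium with serum, insulin and added glucose, and each sample was hybridized to 1 single-color Agilent mouse array. The methods describe drug-selected clones, and the labels do not say which clones the samples came from, so the mutation and the line that carries it cannot be told apart. Nothing says that the 3 samples of a line came from separate transfections, so the tests measure the spread between these samples, which may be technical. The question was which parts of the oxygen-sensing system differed in mRNA level between the lines.

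HIF is a pair of basic helix-loop-helix PAS proteins. The alpha subunit (HIF1A, EPAS1, which is also called HIF2A, or HIF3A) is made continuously and joins a stable beta subunit (ARNT or ARNT2) to bind DNA. With oxygen and 2-oxoglutarate, the prolyl hydroxylases EGLN1, EGLN2 and EGLN3 hydroxylate the alpha subunit, VHL then binds it as the substrate receptor of a ubiquitin ligase, and the asparaginyl hydroxylase HIF1AN blocks its contact with coactivators. This control acts on the protein, whereas an array measures mRNA. *Egln1* and *Egln3* are themselves genes that HIF induces in many cell types, and *Epas1* and *Arnt2* are used in a more restricted set of tissues than *Hif1a* and *Arnt*.

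The 6 arrays were on 1 slide. The share of probes well above background, a flag set by the scanner software, was 58.8 to 61.2% on the 5 arrays with complete scanner output. The scanner output of IG27 replicate 2 held 285 of 62976 spots, and its values came from the deposited table. That table exchanges WT replicates 2 and 3 relative to the scanner output, whose numbers are used here, so statements on either of these replicates rest on the scanner output's label. Array profiles correlated at r = 0.994 to 0.996 within WT cells and 0.997 within IG27 cells, and at 0.902 to 0.905 between them. *H3f3a*, the gene of the plasmid, changed by -0.26 on the log2 scale (SE 0.08, limma, adjusted p = 0.0237), and whether its probe separates the plasmid's transcript from the cell's own was not tested. Of 15 markers of astrocytes and glial progenitors, 13 were well above background in WT cells and 14 in IG27 cells, and their summed level was 353 to 371 against 274 to 287 times the reference level of an array. A sum follows its brightest probes. By gene, 6 of these 15 were higher in IG27 cells and 6 lower (limma, adjusted p under 0.05), beside 70.5% of all genes called in either direction. Of 6 endothelial markers, 1 was above background in WT cells and 3 in IG27 cells (summed level 0.183 to 0.205 against 3.35 to 3.36), with *Cdh5*, *Tek* and *Cldn5* not above background in either. For neurons the summed level was 17.6 to 20 against 9.97 to 11 (*Rbfox3* and *Syt1* not above background), for microglia and blood 14.4 to 15.4 against 13.6 to 14.1 (*Cx3cr1* and *Ptprc* not above background), and for fibroblasts 126 to 129 against 64.3 to 69.6 (*Lum* not above background). By gene, 1 neuron marker was higher and 2 were lower. For microglia and blood 2 were higher and 2 lower, and for fibroblasts 1 was higher and 2 were lower. The samples were cultured lines derived from OS3, so these values describe expression of the markers and not numbers of cells of a type. The part of these differences in the results was not tested. Bulk RNA cannot tell a change in all cells of a line from a change in some of them.

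The HIF system differed between the lines in a mixed pattern. Of the 9 genes tested, *Hif1a*, *Epas1*, *Egln3* and *Hif1an* were higher in IG27 cells, *Arnt2*, *Egln1* and *Vhl* were lower, and *Arnt* and *Egln2* were not called (limma, adjusted p under 0.05). The 3 changes of at least 2-fold were *Egln3* at 11.3-fold higher, *Epas1* at 5.9-fold higher and *Arnt2* at 4.57-fold lower. The count of calls has to be read against the background, because 70.5% of all genes tested were called, 30.5% as higher and 40.0% as lower. Of the 14 probes of the 10 genes, 12 were tested, and 5 were higher and 3 lower, beside 69.7% of all probes called in either direction. All 9 genes passed the filter on dim probes through both lines. A call with at least a 2-fold change was less common, at 23.1% of all genes, and 3 of the 9 members had one. The median log2 fold change was 0.12 over the 9 members and -0.07 over all genes. In the text that follows, a level is log2 of a probe's processed signal minus the 75th percentile of that signal on the same array, so 0 is a signal equal to that percentile and each unit is a doubling. Probes bind with different strength, so levels were compared between arrays and not between genes.

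**Figure D1:**
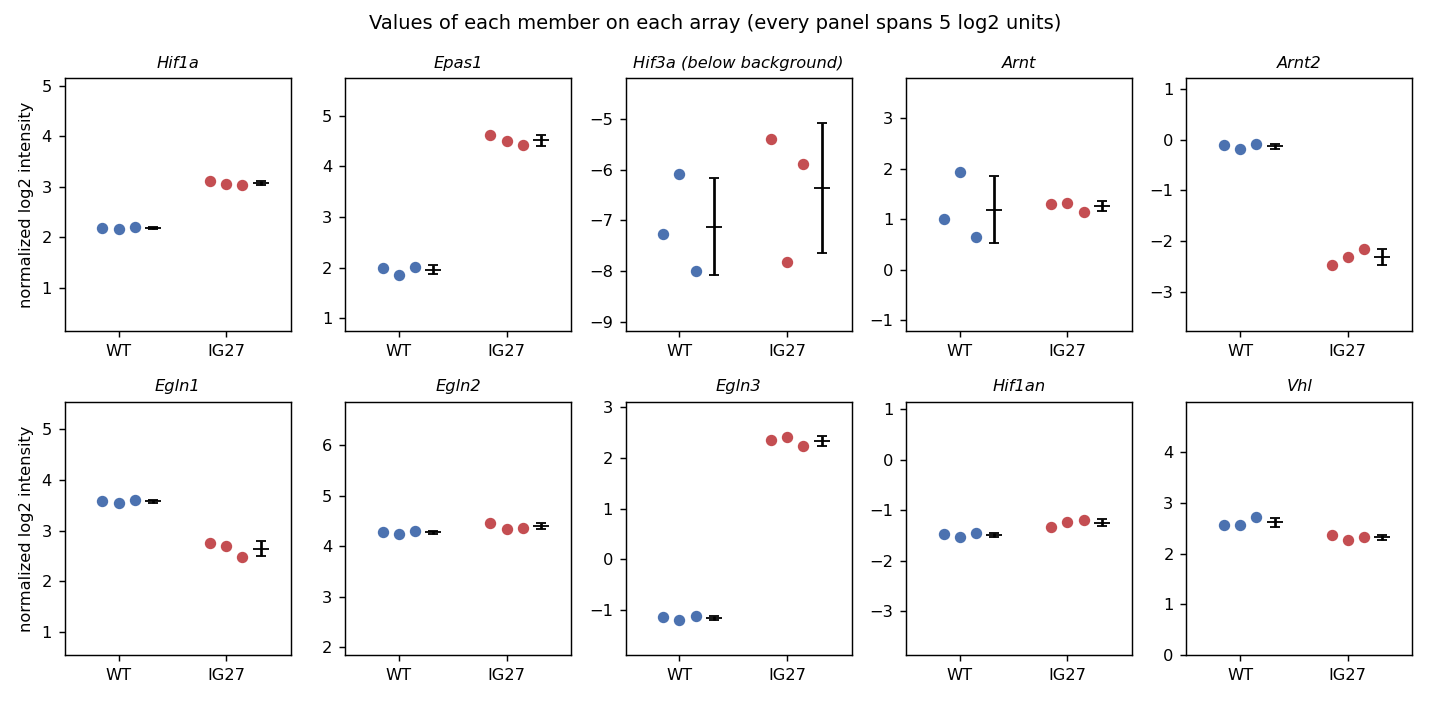
Normalized log2 intensity (vertical axis) of each of the 10 genes on the 3 WT arrays (blue) and the 3 IG27 arrays (red), with the mean and SD of each group in black and every panel spanning 5 log2 units. *Epas1* and *Egln3* lie well apart upward in IG27 cells and *Arnt2* downward, *Arnt* spreads from 0.64 to 1.93 within WT cells, and *Hif3a* was not well above background.

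Both alpha subunits with a measurable signal were higher in IG27 cells. *Hif1a* on chromosome 12, the broadly used alpha subunit, read 2.18, 2.17 and 2.20 in WT cells and 3.11, 3.05 and 3.04 in IG27 cells. Before scaling these were processed signals of 4859.8, 4693.1 and 4546.0 against 9464.0, 9379.3 and 8199.4. The 3 IG27 arrays were all above the 3 WT arrays, and the change of 0.88 (SE 0.05, 95% interval 0.77 to 0.99) was 1.84-fold (limma, adjusted p = 9.76e-06). A change of this size or more was seen in 27.7% of all genes tested. *Epas1* on chromosome 17, the alpha subunit known from endothelium, lung and interstitial cells and from glioma stem cells, read 1.99, 1.85 and 2.02 in WT cells and 4.63, 4.50 and 4.42 in IG27 cells. Its change was 2.56 (SE 0.08, 95% interval 2.37 to 2.75), which is 5.9-fold (limma, adjusted p = 1.04e-06), and 6.9% of all genes changed by as much. No *Epas1* value of one line came near those of the other, the closest being 2.02 and 4.42. Of the 6 endothelial markers, *Kdr*, the main VEGF receptor, was at least 135-fold higher in IG27 cells and *Flt1*, another VEGF receptor, at least 39.6-fold higher, and both were tested through their signal in IG27 cells alone. *Pecam1*, an adhesion protein of endothelium, was lower by a log2 change of -0.27 (limma, adjusted p = 0.0253), and *Cdh5*, *Tek* and *Cldn5* were not above background in either line. The part of these markers in the change of *Epas1* was not tested.

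*Hif3a*, an alpha subunit with splice forms that inhibit the other alpha subunits, was measured by 2 probes on chromosome 7. Neither was well above background on any array with that flag, and the gene was not tested. The brighter probe read -7.27, -6.09 and -8.00 in WT cells and -5.38, -7.82 and -5.88 in IG27 cells. These values overlap between the lines.

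The change of the alpha subunits was unequal. Within each array, the log2 difference of *Hif1a* minus *Epas1* was 0.18 to 0.32 in WT cells and -1.51 to -1.38 in IG27 cells. As both signals come from the same array, this shift of -1.68 (SE 0.06), a 3.2-fold unequal change, does not depend on the scaling between arrays. It has no overlap between the lines, but 3 arrays against 3 cannot give an exact permutation p below 0.1, and p was 0.1 (two-sided, also 0.1 after adjustment over 5 pairs of members). The sign of the difference within an array carries no meaning, because the probes differ.

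The beta subunits behaved unlike each other. *Arnt2*, the beta subunit known from neurons and the developing brain, fell from -0.10, -0.18 and -0.09 in WT cells to -2.48, -2.32 and -2.16 in IG27 cells. In processed signal this was 999.0, 917.6 and 924.5 against 196.9, 227.2 and 223.8. The lines did not overlap, and the change of -2.19 (SE 0.09, 95% interval -2.41 to -1.97, limma, adjusted p = 3.38e-06) made *Arnt2* 4.57-fold lower. Changes of that size were seen in 8.71% of genes, and other genes of chromosome 7 had a median change of 0.13. *Arnt*, the broadly used beta subunit on chromosome 3, read 1.0, 1.93 and 0.64 in WT cells and 1.31, 1.32 and 1.15 in IG27 cells. The WT values spread more widely than the IG27 values and enclosed them, and the change was 0.07 (SE 0.32, 95% interval -0.71 to 0.85, limma, adjusted p = 0.857). A second *Arnt* probe was steadier, with -0.45, -0.36 and -0.49 in WT cells and -0.66, -0.46 and -0.39 in IG27 cells, and its change was -0.07 (SE 0.08, limma, adjusted p = 0.478). Without WT replicate 2, the highest WT value, the first probe changed by 0.44 (limma, adjusted p = 0.0299). WT replicates 1 and 3 were in one row of the slide and the other 4 arrays in the next, and with the row as a block, which compares IG27 cells with WT replicate 2, it changed by -0.67 (limma, adjusted p = 0.0184). Within an array, *Arnt* minus *Arnt2* was 0.73 to 2.11 in WT cells and 3.30 to 3.79 in IG27 cells, a shift of 2.26 (SE 0.44, exact permutation p = 0.1).

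The 3 prolyl hydroxylases went 3 ways. *Egln3* on chromosome 12, known as the hydroxylase that hypoxia induces most in many cells, read -1.14, -1.21 and -1.13 in WT cells and 2.35, 2.42 and 2.23 in IG27 cells. Processed signals were 485.8, 449.4 and 450.6 against 5580.8, 6074.6 and 4692.3. This was the largest change among the tested members, at 3.50 (SE 0.06, 95% interval 3.34 to 3.65) or 11.3-fold (limma, adjusted p = 1.78e-07), and 4.34% of all genes changed by as much. The 10 tested genes nearest to *Egln3*, 5 on each side, had changes of -1.85 to 0.37, with 3 higher and 6 lower. *Egln2* on chromosome 7, a hydroxylase that hypoxia is not known to induce, read 4.28, 4.24 and 4.30 in WT cells and 4.46, 4.35 and 4.37 in IG27 cells. The values did not overlap, but the change of 0.12 (SE 0.05) was small and missed the threshold (limma, adjusted p = 0.0763). A second *Egln2* probe read 2.16, 1.76 and 1.80 against 1.98, 1.97 and 1.99 and overlapped (change 0.07, limma, adjusted p = 0.581).

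*Egln1*, the hydroxylase that sets HIF1A abundance in most cells with oxygen, was lower in IG27 cells. It read 3.58, 3.55 and 3.61 in WT cells and 2.75, 2.69 and 2.47 in IG27 cells, with processed signals of 12851.6, 12222.2 and 12071.3 against 7357.3, 7314.8 and 5532.7. The lines did not overlap, and the change of -0.95 (SE 0.08, 95% interval -1.15 to -0.75, limma, adjusted p = 9.0e-05) made it 1.93-fold lower. Genes of its chromosome moved the same way. The other 768 tested genes of chromosome 8 had a median change of -0.67, the lowest of 20 chromosomes, and of the 10 genes nearest to *Egln1* 8 were lower and 1 was higher, with a median of -0.79. Relative to the median of its chromosome *Egln1* changed by -0.28. The part of the chromosome-wide shift in the value of *Egln1* was not tested, and the arrays do not measure copy number.

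The prolyl hydroxylases changed unequally. Within an array, *Egln1* minus *Egln3* ran from 4.73 to 4.77 in WT cells and from 0.24 to 0.40 in IG27 cells, a shift of -4.44 (SE 0.05) or 21.8-fold. *Egln2* minus *Egln3* shifted by -3.38 (SE 0.07) and *Egln1* minus *Egln2* by -1.07 (SE 0.08). Each of these shifts had an exact permutation p of 0.1, the smallest that 3 against 3 allows, and none had overlap between the lines.

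The asparaginyl hydroxylase and the ligase receptor changed little. *Hif1an* on chromosome 19 read -1.48, -1.53 and -1.46 in WT cells and -1.33, -1.23 and -1.20 in IG27 cells. Its rise of 0.24 (SE 0.05, 95% interval 0.10 to 0.37, 1.18-fold) passed the test (limma, adjusted p = 0.00812), and a second probe rose by 0.17 (limma, adjusted p = 0.0402). The rise of *Hif1an* turned to -0.0036 when each array was scaled to its median, and its chromosome had a median change of 0.18. *Vhl* on chromosome 6 read 2.57, 2.57 and 2.72 in WT cells and 2.36, 2.27 and 2.33 in IG27 cells. The values did not overlap, and the change of -0.30 (SE 0.06, 95% interval -0.45 to -0.15) made it 1.23-fold lower (limma, adjusted p = 0.00496). The other genes of chromosome 6 had a median of -0.21, and with the slide row as a block *Vhl* changed by -0.25 and was not called (limma, adjusted p = 0.0593). In all, the values of 8 of the 9 tested members did not overlap between the lines, against 75.7% of all genes.

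**Figure D2:**
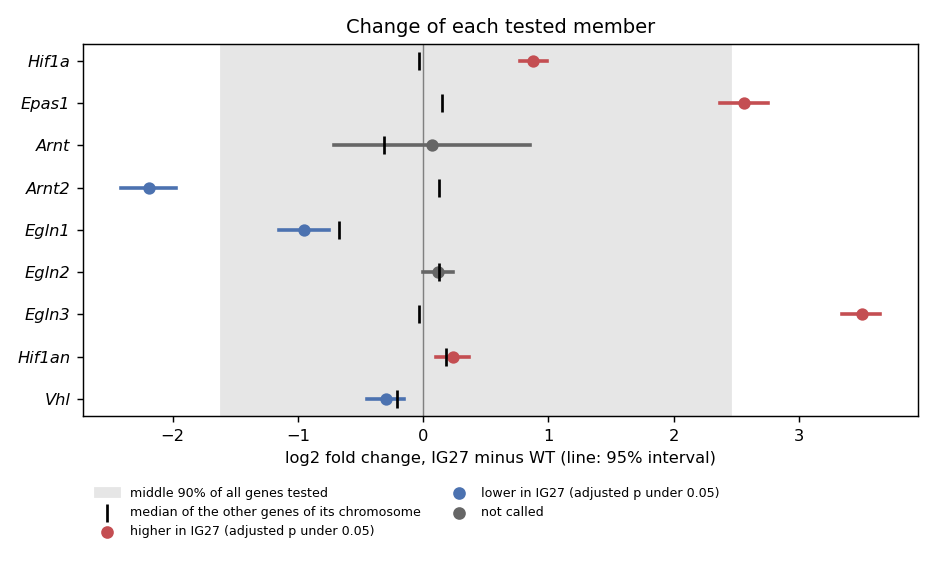
Log2 fold change of IG27 over WT cells (horizontal axis) of the 9 tested genes with its 95% interval, the span from the 5th to the 95th percentile of all genes tested in gray (-1.61 to 2.46), and the median of the other genes of the same chromosome as a black tick. *Egln3*, *Epas1* and *Arnt2* lie outside the gray band, and the interval of *Egln1* lies below zero with its chromosome median beside it.

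Promoters were searched for the core of the hypoxia response element, which HIF binds. The 250 bases before the transcription start are shown for *Egln3* and *Hif1a*, which were higher, and for *Arnt2* and *Egln1*, which were lower. They were taken from RefSeq on GRCm38.p6, 5′ to 3′ on the strand of the gene: *Hif1a* at chr12:73907617-73907866 (plus), *Egln3* at chr12:54203875-54204124 (minus), *Arnt2* at chr7:84410039-84410288 (minus) and *Egln1* at chr8:124949255-124949504 (minus). Capitals mark ACGTG or GCGTG on either strand, so that CACGT and CACGC are the same motifs read from the other strand, and overlapping matches were each counted.
Hif1a: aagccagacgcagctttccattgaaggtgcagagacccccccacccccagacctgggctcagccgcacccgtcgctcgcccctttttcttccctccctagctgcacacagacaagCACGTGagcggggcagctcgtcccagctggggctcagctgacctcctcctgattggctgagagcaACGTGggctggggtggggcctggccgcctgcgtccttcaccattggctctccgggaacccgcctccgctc
Egln3: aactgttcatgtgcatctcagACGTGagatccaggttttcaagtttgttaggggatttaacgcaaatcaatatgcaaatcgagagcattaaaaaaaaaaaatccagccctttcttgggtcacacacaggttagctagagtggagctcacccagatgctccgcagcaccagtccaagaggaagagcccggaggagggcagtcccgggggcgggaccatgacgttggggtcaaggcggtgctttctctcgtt
Arnt2: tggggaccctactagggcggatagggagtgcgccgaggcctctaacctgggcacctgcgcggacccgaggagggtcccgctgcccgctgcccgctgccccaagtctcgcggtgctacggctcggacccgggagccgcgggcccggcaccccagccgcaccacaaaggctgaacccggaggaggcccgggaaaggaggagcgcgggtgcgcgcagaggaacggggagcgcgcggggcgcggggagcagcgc
Egln1: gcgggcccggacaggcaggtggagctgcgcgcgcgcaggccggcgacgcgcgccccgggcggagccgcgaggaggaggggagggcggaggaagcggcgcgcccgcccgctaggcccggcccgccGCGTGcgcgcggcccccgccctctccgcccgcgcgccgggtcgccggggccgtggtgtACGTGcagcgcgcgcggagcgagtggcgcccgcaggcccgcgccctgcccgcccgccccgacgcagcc

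The *Hif1a* window held 3 matches, of which a pair overlap in 1 palindrome, the *Egln1* window held 2, the *Egln3* window held 1 and the *Arnt2* window held 0. At least 1 match was found in 7 of the 10 windows on record for 9 of the genes, against 38.6% of 32851 promoter windows of that length. Each motif contains a CpG, and the 38.6% is not matched for CpG content, so the shares are not a measure of enrichment. *Egln2* was counted with each of its windows. *Epas1* was the gene without a window. *Egln1*, the hydroxylase with the lower level, therefore held more matches than *Egln3*, the one with the highest rise. The windows of *Egln2*, which was not called, held 4 and 1. Those of *Hif1an*, which was called higher, and *Vhl*, which was called lower, held 0 each. A match is a description of letters and not a site of binding. The windows differed more in CpG content: the *Egln1* window held 51 CpG dinucleotides and that of *Arnt2* 31, a number that 0.067% and 5.19% of promoters reach, whereas *Hif1a* held 14 and *Egln3* 10 against a median of 6.

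Among the genes whose profile over the 6 arrays was most like that of *Hif1a* were *Sf3b5*, a splicing factor subunit (Pearson r = 0.9999), and *Cox6a2*, a muscle form of a cytochrome oxidase subunit (0.9998). The 6 points fall into the 2 lines and share their arrays and scaling, and 1468 genes, or 9.87% of those tested, had r over 0.99, so likeness of this kind separates few genes. *Sf3b5* changed by 1.14 and *Cox6a2* by 3.61.

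The proteins that work with the members showed changes in both directions, with 8 of 28 tested genes higher and 8 lower, a median change of -0.03, and 70.5% of all genes called in either direction. Of the 4 partners of VHL in its ligase, *Rbx1*, the subunit that recruits the ubiquitin-charged enzyme, was higher by 0.61 (SE 0.07, limma, adjusted p = 4.61e-04). The elongins *Elob* and *Eloc* changed by -0.10 and -0.06 and the scaffold *Cul2* by 0.11, and none of the 3 was called, although a dimmer *Cul2* probe was higher by 0.17 (limma, adjusted p = 0.0285 over all probes). Among 12 regulators of HIF protein and of the hydroxylases, 3 were higher and 4 lower, with a median of -0.08.

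*P4htm*, a transmembrane prolyl hydroxylase that can act on HIF alpha subunits, had the largest change of these regulators. It read 0.92, 0.93 and 0.81 in WT cells and -1.38, -1.28 and -1.29 in IG27 cells, a change of -2.20 (SE 0.06, limma, adjusted p = 5.61e-07), and its chromosome 9 had a median of -0.64. *Siah1a*, a ubiquitin ligase for EGLN proteins, changed by -0.58, *Fkbp8*, which binds EGLN1, by -0.71 and *Usp33*, a deubiquitinase known to act with VHL, by -0.72. *Senp1*, a desumoylase of HIF1A, rose by 0.69 on its brighter probe and by 0.35 on another. *Stub1*, a chaperone-linked ubiquitin ligase, rose by 0.49 and *Hsp90ab1*, a chaperone of HIF1A, by 0.26. The remaining 5 regulators, *Siah2*, *Os9*, *Usp20*, *Rack1* and *Hsp90aa1*, were not called. Of the coactivators, *Ep300* rose by 0.46 on its brighter probe and by 0.29 on another, and *Crebbp* was not called, with WT values from 2.32 to 3.73. *Cited2*, which competes with HIF for those coactivators and is itself induced by HIF, read 1.76, 2.27 and 2.42 in WT cells and 2.64, 2.49 and 2.59 in IG27 cells, and its change of 0.42 missed the threshold (limma, adjusted p = 0.0697).

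Of the 11 other bHLH-PAS genes, which share the domains of the HIF subunits and in part the partner ARNT, 9 were tested, with 3 higher and 4 lower, beside 70.5% of all genes called in either direction. *Ahrr*, the repressor of the aryl hydrocarbon receptor, had the largest change, from 1.34, 1.36 and 1.43 in WT cells to -2.45, -2.28 and -2.54 in IG27 cells (-3.81, SE 0.08, limma, adjusted p = 2.65e-07). *Ahr*, the receptor itself, fell by 1.13 on the log2 scale, with every IG27 array below every WT array. The clock subunits *Arntl* and *Arntl2* rose by 0.79 and 0.50 and *Npas3* by 0.29. *Sim2* changed by -0.59 on its brighter probe and by 3.97 on another, so that its direction depends on the probe. *Npas4* changed by -0.22. *Clock* was not called on its brighter probe (0.05) but was higher by 0.57 on another (limma, adjusted p = 1.11e-04 over all probes). *Npas2* was not called, and *Npas1* and *Sim1* were not tested.

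Genes known as induced through HIF were mostly higher in IG27 cells. Of 31 such genes, chosen with members left out, 28 were tested, and 20 were higher and 4 lower. Of all genes, 30.5% were higher and 40.0% lower. The list was chosen with earlier results of these data known, so the comparison with all genes is not an independent test. The median change was 1.04 against -0.07 for all genes. With the filter on dim probes required in both lines, which *Stc2* did not pass, 19 were higher and 5 lower. *Ak4*, an adenylate kinase of mitochondria, read -4.11, -4.15 and -4.34 in WT cells and 3.26, 3.32 and 3.31 in IG27 cells, a change of 7.50 (SE 0.07, limma, adjusted p = 5.49e-08), with 4.79 on a second probe. *Stc2*, a secreted glycoprotein without a signal above background in WT cells, was at least 18.8-fold higher in IG27 cells. *Adm*, a vasodilator peptide, rose by 3.64, *Ankrd37* by 3.58, and *Vegfa*, the endothelial growth factor, by 2.98. *Vegfa* read 0.52, 1.58 and 1.44 in WT cells on its brightest probe, and its 3 other probes gave changes from 2.74 to 2.98.

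Targets with known roles in metabolism and matrix were also among those higher. *Car9*, a carbonic anhydrase that controls pH, rose by 2.97, with 1.91 on another probe, the mitophagy gene *Bnip3* by 2.31, and the glucose transporter *Slc2a1* by 1.92. The collagen prolyl hydroxylases *P4ha2* and *P4ha1* rose by 1.96 and 1.67. *Ldha*, lactate dehydrogenase, rose by 0.54 on its brightest probe and by 1.72 on another. The other 9 genes rose by 0.22 to 1.51, the smallest being the histone demethylase *Kdm3a*, which turned to -0.02 with each array scaled to its median. Among those that were lower were the glycolytic regulators *Pfkfb3* (-0.92) and *Pfkfb4* (-0.73), and *Insig2* (-0.67). *Pgk1*, *Higd1a*, *Tfrc* and *Hmox1* were not called, and *Car12*, *Lox* and *Epo* were not tested.

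**Figure D3:**
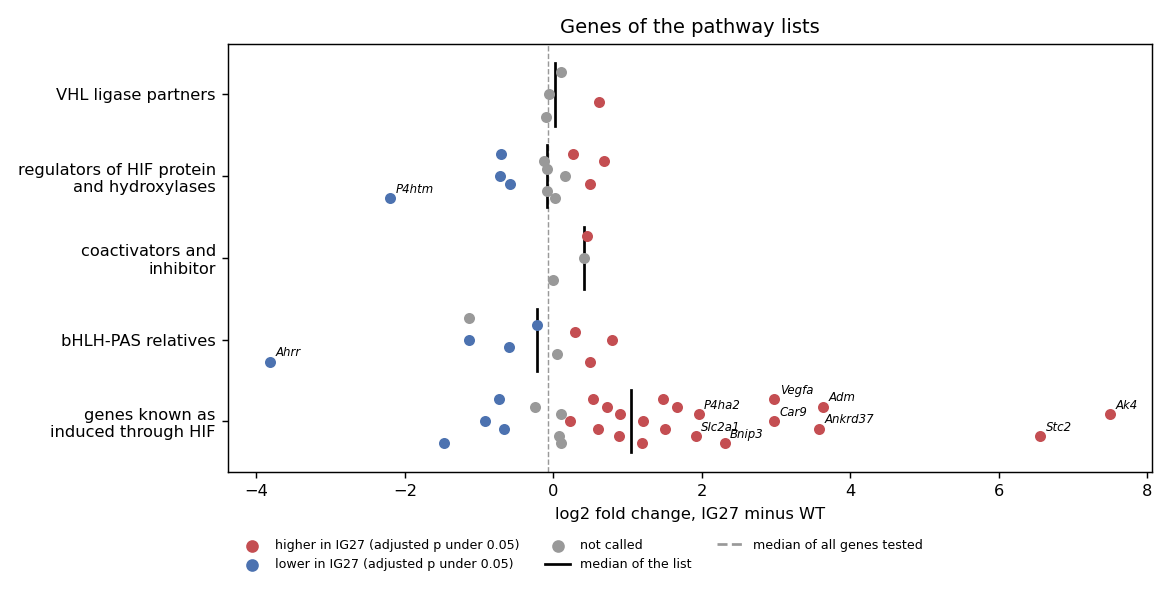
Log2 fold change of IG27 over WT cells (horizontal axis) of the tested genes of 5 lists, with red and blue for genes called higher and lower (limma, adjusted p under 0.05), gray for those not called, a black line for the median of each list and a dashed line for the median of all genes (-0.07). The genes known as induced through HIF lie mostly to the right, with *Ak4* and *Stc2* farthest, and the partners and relatives spread to both sides.

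**Figure D4:**
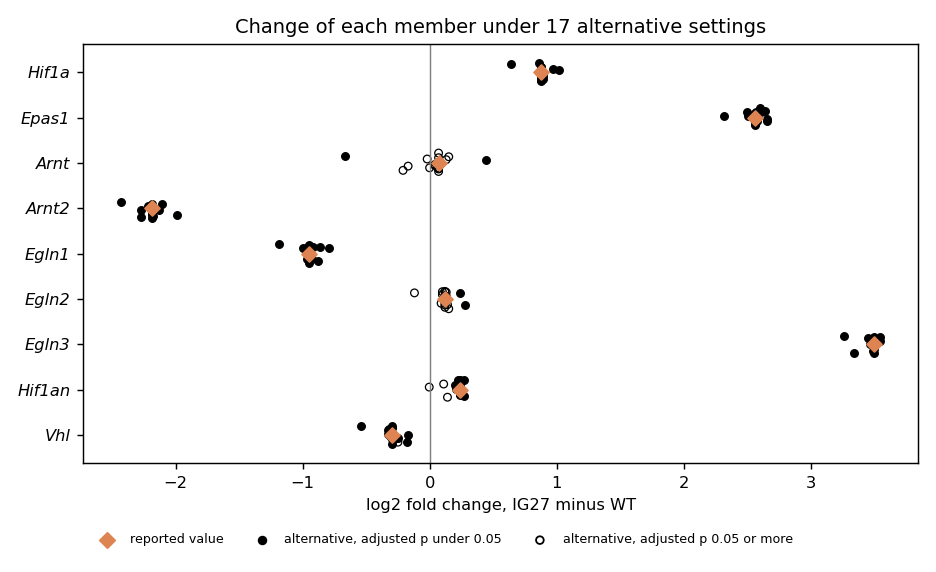
Log2 fold change (horizontal axis) of each tested gene as reported (diamond) and under 17 alternative settings of normalization, filter, probe choice and arrays, filled where the adjusted p was under 0.05 and open otherwise. *Hif1a*, *Epas1*, *Arnt2*, *Egln1* and *Egln3* were called in the same direction in all 17, but each had 1 probe, so probe choice could not move them. *Arnt*, *Egln2* and *Hif1an* changed sign in at least 1.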

How the data were processed

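RNA was labeled with Cy3 and hybridized to 1 array per sample. The authors deposited the intensity of each spot, read with Agilent Feature Extraction (version 10.7.3.1 in the file headers, 9.1 in the submitters' processing notes), and a table of processed intensities per probe. The processed intensity is the software's own corrected signal. The values of IG27 replicate 2 came from the table: 255 of its 255 single-spot probes in the scanner output equaled the table (relative tolerance 1e-04). WT replicates 2 and 3 are exchanged between the table and the scanner output, and the scanner output was followed.

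The log2 values were computed from the deposited intensities, minus the 75th percentile of each array. Outlier spots (107 to 210 per complete array) were left out, and no spot was saturated (0). A probe was tested when the complete arrays of at least 1 group all flagged it as well above background, and a gene took its brightest tested probe. A fold written as "at least" sets the bright group's mean against the higher of the dim probe and the lowest signal well above background. Of 56605 probes, 32994 were named with the RefSeq table of GRCm38.p6. That build was used for names, chromosomes, neighbors and promoter windows, and not for probe positions, as the array design is on another build. Differences were tested with limma (version 3.58.1, R 4.3.3; lmFit and eBayes, two-sided, Benjamini-Hochberg over all genes, threshold 0.05). On simulated data the fit recovered 72% of 200 changed genes of 14898 and called 10 unchanged ones. A far smaller share of genes changed there than the 70.5% called in the data, so this rate does not carry over to them. The number of arrays limits the precision.

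The 10 genes and the lists were chosen with earlier results of these data known. Genes named were the 10, members of the lists, the genes most like *Hif1a* by Pearson r, and the endothelial markers, singled out after their values were seen. Some genes that this rule names are not reported here. Alternatives were other scalings, background correction with normexp (offset 50) on the arrays with complete scanner output, weaker and stricter filters on dim signals, flagged spots retained, probes of a gene averaged, a trended eBayes, the value table for every array, replicate number or slide row as a block, each array left out, the change minus the chromosome median, and an unadjusted p.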

Additional observations from a re-analysis of the deposited data

How the results depend on the processing

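*Hif1a* (0.64 to 1.02), *Epas1* (2.32 to 2.66), *Arnt2* (-2.43 to -1.99), *Egln1* (-1.19 to -0.79) and *Egln3* (3.26 to 3.55) kept their direction and stayed called under all 17 alternatives with a test. Each of these genes had 1 probe, so averaging the probes of a gene could not move its value. Both filters on dim probes, the trended eBayes and the replicate block also left the value as it was and could alter only the call. *Vhl* was called in 16 of 17 (-0.54 to -0.17), the exception being the slide row as a block, and *Hif1an* in 14 of 17, with 0.14 after quantile normalization (limma, adjusted p = 0.0625), 0.11 after normexp (limma, adjusted p = 0.244) and -0.0036 with each array scaled to its median. *Egln2* reached 0.24 and was called after quantile normalization (limma, adjusted p = 0.00155) and 0.28 after normexp (limma, adjusted p = 0.0072), but was -0.12 with median scaling and -0.01 minus the median of its chromosome. *Arnt* was -0.17 with median scaling, -0.00081 for the mean of its probes, -0.67 with the slide row as a block, -0.02 without WT replicate 1 and -0.21 without WT replicate 3, and it was called at 0.44 without WT replicate 2 (range -0.21 to 0.44 with an array left out). The cause of these changes was not tested. Median scaling moved the median of all genes from -0.07 to -0.31, and 27.6% of its calls were higher (3026 higher and 7956 lower) against 43.3% (4546 and 5955). Across the alternatives 3 to 5 members were higher and 3 lower (4 to 5 and 3 with an array left out), 8946 to 10982 genes were called (9800 to 10145 with an array left out), 16 to 21 genes of the partner and relative lists (16 to 18), 23 to 25 of the genes known as induced through HIF (23 to 25), of which 19 to 21 higher (19 to 20) and 4 to 5 lower (4 to 5), and 7 to 9 probes of members (7 to 9). The shifts between paired members kept their sign under all 17. Median scaling takes the same amount from every probe of an array and cannot change a shift within arrays. The trended eBayes and the replicate block could not change it either, so not all 17 put the sign to a test. Samples with the same replicate number deviated together with r = 0.012, 0.04 and 0.076, and samples with different numbers with r = -0.094 to 0.059. Whether samples of the same number share more than the number was not tested. With the replicate block 10309 genes, 4 members higher and 3 lower were called. With 6 arrays of 1 slide, small changes such as those of *Egln2*, *Hif1an* and *Vhl* depend on the scaling or the row, and *Arnt* on single WT arrays.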
